A study of Mus musculus with 24 samples.

Results

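The thioredoxin and peroxiredoxin enzymes, catalase, the superoxide dismutases and NAD(P)H quinone dehydrogenase 1 were examined in the bone marrow of WT and Nrf2-KO mice on the ground and after spaceflight. The 10 genes Txn1, Txnrd1, Srxn1, Prdx1, Prdx2, Prdx6, Cat, Sod1, Sod2 and Nqo1 were found in the expression table of 54752 genes by their symbols in GENCODE M21, and each matched 1 gene. All 10 were among the 12373 genes that exceeded 1 TPM (a level scaled to transcript length and to the library total) in at least 1 library and were tested. Each group held 6 male C57BL/6 mice, with 1 library per mouse. GC-WT mice were wild-type ground controls and GC-KO mice were Nrf2-KO ground controls. FL-WT and FL-KO mice were the wild-type and Nrf2-KO mice that stayed at the ISS for 31 days and were sampled 2 days after landing. The flight mice were 8 weeks old when they were transported before launch, and the age of the ground controls is not given in the sources used here. The cells came from the right pelvis and tibia and had been frozen before RNA was isolated. Cells positive for the erythroid marker Ter119 survived the freezing poorly in the flow cytometry of the study. That cytometry used thawed and washed cells, whereas for RNA the reagent was added directly to the cells in their freezing medium. The flight mice were sampled in the US and the ground controls in Japan, so flight and the place of sampling cannot be told apart. Nrf2 was lacking in the whole animal, so genotype differences cannot be assigned to a cell type.

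Hydrogen peroxide is removed by catalase and by the peroxiredoxins. A peroxiredoxin is oxidised in each round, is reduced again by thioredoxin, and thioredoxin is in turn reduced by thioredoxin reductase with NADPH. Sulfiredoxin repairs peroxiredoxins that were oxidised too far, superoxide dismutases produce the hydrogen peroxide from superoxide, and NAD(P)H quinone dehydrogenase 1 reduces quinones without releasing radicals. Nrf2 is a transcription factor that binds antioxidant response elements with small Maf proteins, and Nqo1, Srxn1 and Txnrd1 are textbook targets of it. In marrow, red cell precursors carry large amounts of peroxiredoxin 2 and catalase.

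The targeted gene was checked first. Nfe2l2, the gene of Nrf2, lay between 17.1 and 26.1 TPM in GC-WT mice and between 3.60 and 7.18 TPM in GC-KO mice. It lay between 11.4 and 27.3 TPM in FL-WT mice and between 2.22 and 4.31 TPM in FL-KO mice, and in both settings the genotypes did not overlap (two-sided exact permutation test on rank sums, p = 0.00216 for each). The values are TPM without read counts, so the depth of each library is unknown. The median difference of all tested genes in log2(TPM + 1) was -0.24 between FL-WT and GC-WT mice (the WT flight comparison) and -0.29 between FL-KO and GC-KO mice (the KO flight comparison). It was -0.22 between GC-KO and GC-WT mice (the ground genotype comparison) and -0.25 between FL-KO and FL-WT mice (the in-flight genotype comparison). It lay between -0.01 and 0.04 when libraries were scaled by median of ratios. Differences are therefore also given relative to this median.

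Promoter sequences are shown for Txnrd1 and Srxn1, in which the genotypes did not overlap, and for Prdx1 and Sod1, which hold the same kind of motif and in which the genotypes overlapped. The sequences are RefSeq windows on GRCm38.p6, 5′ to 3′ along the gene. Each is cut before its first base that lies in an annotated exon of the gene. Of the 10 genes, 9 matched the promoter table, which holds no window for Prdx6. Capitals mark the letters of the antioxidant response element core TGACNNNGC or of the variant TGAGNNNGC, on either strand. The variant was added after the core had been searched.
Txnrd1 (chr10:82858956-82859178, plus strand): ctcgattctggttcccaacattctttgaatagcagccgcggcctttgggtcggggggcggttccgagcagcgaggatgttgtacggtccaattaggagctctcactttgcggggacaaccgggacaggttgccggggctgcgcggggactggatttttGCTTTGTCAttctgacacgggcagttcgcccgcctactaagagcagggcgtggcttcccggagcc
Srxn1 (chr2:152105274-152105515, plus strand): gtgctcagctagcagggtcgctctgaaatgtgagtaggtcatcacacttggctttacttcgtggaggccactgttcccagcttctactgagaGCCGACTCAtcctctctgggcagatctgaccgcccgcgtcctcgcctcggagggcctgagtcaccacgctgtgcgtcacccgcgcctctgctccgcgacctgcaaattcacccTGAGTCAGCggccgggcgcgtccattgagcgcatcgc
Prdx1 (chr4:116685349-116685543, plus strand): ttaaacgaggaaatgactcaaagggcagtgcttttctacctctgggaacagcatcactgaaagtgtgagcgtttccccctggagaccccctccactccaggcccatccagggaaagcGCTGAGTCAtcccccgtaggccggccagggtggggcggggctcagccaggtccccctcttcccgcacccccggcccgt
Sod1 (chr16:90220512-90220753, plus strand): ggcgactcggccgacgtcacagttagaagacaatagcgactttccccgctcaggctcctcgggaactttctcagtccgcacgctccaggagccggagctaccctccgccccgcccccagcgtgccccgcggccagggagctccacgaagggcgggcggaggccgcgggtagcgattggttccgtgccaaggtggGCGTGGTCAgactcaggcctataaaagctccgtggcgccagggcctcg

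The Txnrd1 window belongs to 1 of 3 annotated starts of the gene and holds the core on the minus strand. Positions are counted back from the last printed base, which is 1, and the Txnrd1 core runs from 65 to 57. The Prdx1 core lies on the minus strand at 78 to 70 and the Sod1 core on the minus strand at 48 to 40. Srxn1 holds the variant on the minus strand at 150 to 142 and on the plus strand at 37 to 29. The Prdx1 core and the variant nearest to the end of the Srxn1 window each contain the AP-1 motif TGACTCA, read on 1 of the strands. Over the 250 bases before each start in the table, which can include exonic bases that are not printed here, the core was held by 3 of 11 windows of these genes and by 10.2% of 32851 windows in all. The variant was held by 1 of 11 and by 14.4% of all windows, and TGACTCA by 2 of 11 and by 4.46%. The windows of Nqo1, Cat, Prdx2, Txn1 and Sod2 hold neither the core nor the variant, and neither do those of the other Txnrd1 starts. Such matches describe the letters in these windows and are not binding sites.

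Levels of the 10 genes differed widely in the marrow. In GC-WT mice, Prdx2 had the highest mean (238 TPM), followed by Sod1 (122 TPM) and Txn1 (90.7 TPM), and the ranges of neighbours in this order overlapped. Cat (49.3 TPM), Prdx1 (41.4 TPM) and Prdx6 (32.6 TPM) formed a middle group, apart from Txn1 above and from Txnrd1 (10.3 TPM) below. Sod2 (4.08 TPM), Nqo1 (3.02 TPM) and Srxn1 (2.10 TPM) were lowest, and their neighbouring ranges overlapped. Prdx2 was also highest and Srxn1 also lowest by mean in the other 3 groups.

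**Figure D1:**
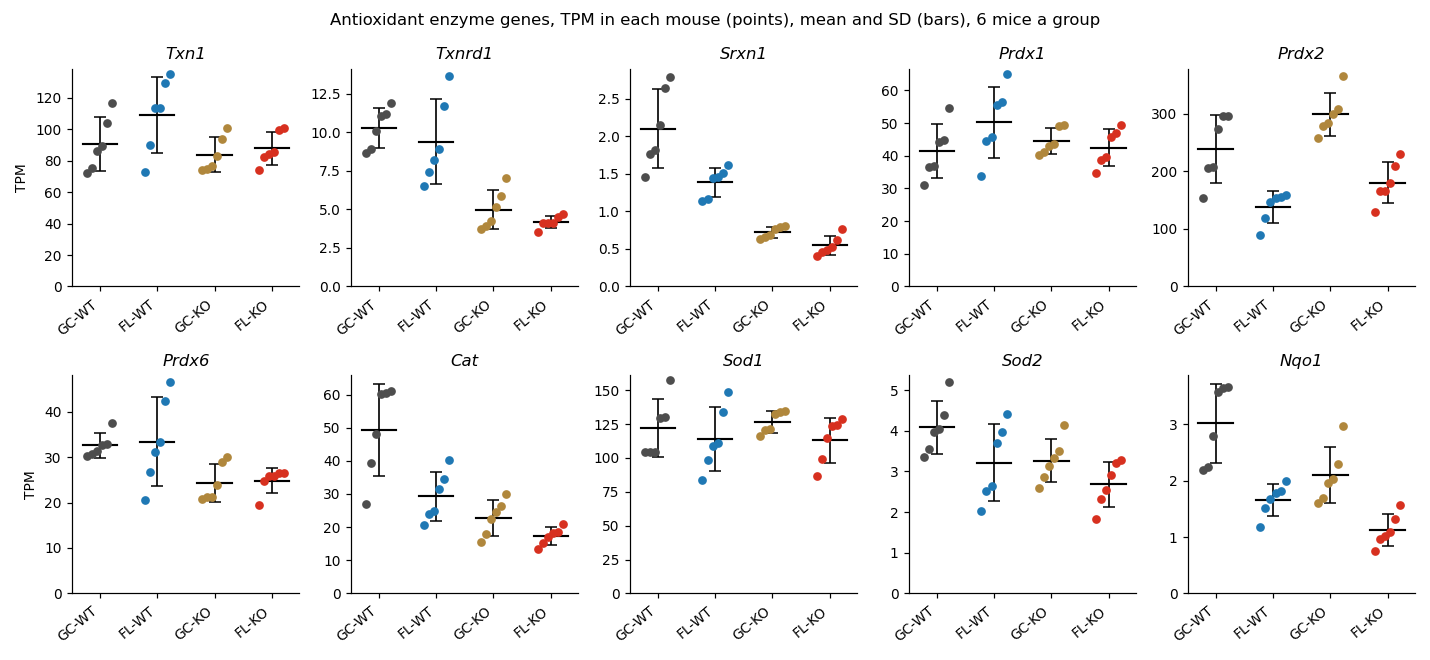
TPM of the 10 genes in each mouse (points, 6 a group), with the mean (horizontal line) and SD (bars) in the 4 groups, each panel with its own axis from 0. Txnrd1 and Srxn1 separate the genotypes, Nqo1 separates flight from ground within each genotype, and Txn1, Prdx1, Cat, Sod1 and Sod2 overlap in every comparison.

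Thioredoxin reductase 1 and sulfiredoxin 1 were lower in Nrf2-KO mice on the ground and in flight, with no overlap between the genotypes, whereas thioredoxin 1 was not called in any comparison. Txnrd1, the enzyme that reduces thioredoxin, lay between 8.67 and 11.9 TPM in GC-WT mice (median 10.6) and between 3.70 and 7.02 TPM in GC-KO mice (median 4.70). In flight, it lay between 6.54 and 13.6 TPM in FL-WT mice (median 8.54) and between 3.50 and 4.67 TPM in FL-KO mice (median 4.11). Every Nrf2-KO mouse was thus below every WT mouse in the same setting. The difference in log2(TPM + 1) was -0.94 ± 0.15 (SE, limma, adjusted p = 0.000256) on the ground and -0.97 ± 0.15 (SE, limma, adjusted p = 7.68e-06) in flight. Relative to the median of all genes these were -0.71 and -0.72, and both calls held in all 10 alternative settings and in all 24 fits that left out a library. With flight, Txnrd1 differed by -0.15 (95% interval -0.45 to 0.15, adjusted p = 0.421) in WT mice and by -0.19 (-0.49 to 0.11, adjusted p = 0.277) in Nrf2-KO mice. It was called higher with flight under the GC content and length correction, by 0.16 in WT mice, and in Nrf2-KO mice by 0.21 under that correction, 0.18 under median-of-ratios scaling and 0.21 under quantile normalization.

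Markers of monocytes and macrophages were also compared between the genotypes. Their 9 genes, all detected, summed to between 428 and 572 TPM in GC-WT mice, 371 and 678 in FL-WT mice, 308 and 477 in GC-KO mice and 269 and 365 in FL-KO mice. Of these 9 genes, 5 were lower in Nrf2-KO mice on the ground and 7 in flight at an adjusted p under 0.1, where 42.9% and 47.2% of all tested genes were lower. The Pearson correlation of Txnrd1 with this sum was 0.91 over the 24 libraries and 0.82 after the group means were removed, as a description of libraries that share their composition. Of 10 neutrophil markers, 6 were lower and 2 higher in Nrf2-KO mice on the ground, and 7 were lower and 0 higher in flight. Of all tested genes, 3.13% and 1.91% were higher. The median genotype difference of the monocyte and macrophage markers was -0.37 on the ground and -0.69 in flight. That of the neutrophil markers was -0.70 and -0.93, and that of all tested genes -0.22 and -0.25. The correlation of Txnrd1 with the neutrophil markers was not computed. The part of monocytes, macrophages or neutrophils in the Txnrd1 difference was not tested. In bulk RNA, fewer cells of a type and less RNA per cell cannot be told apart.

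Srxn1, which encodes the sulfiredoxin that repairs overoxidised peroxiredoxins, lay between 1.46 and 2.78 TPM in GC-WT mice (median 1.98) and between 0.63 and 0.80 TPM in GC-KO mice (median 0.73). It lay between 1.14 and 1.61 TPM in FL-WT mice (median 1.45) and between 0.41 and 0.77 TPM in FL-KO mice (median 0.51). The genotypes did not overlap in either setting. Srxn1 exceeded 1 TPM in the 12 WT libraries alone and entered the test through them, so its genotype difference was bound to appear and is given as a value. Mean TPM in Nrf2-KO mice was 34.4% (ground) and 39.4% (flight) of the WT mean, and the difference in log2(TPM + 1) was -0.83 ± 0.10 (SE) and -0.63 ± 0.10 (SE). In flight it came to -0.00 (adjusted p = 0.985) after GC content and length trends were removed, and to between -0.45 and -1.21 in the other 9 settings. Srxn1 was also lower in FL-WT than in GC-WT mice, by -0.36 ± 0.10 (SE, limma, adjusted p = 0.0119), with 3 of 6 flight mice below all ground mice. Relative to all genes this flight difference was -0.12. That call was lost with median-of-ratios scaling (-0.13), quantile normalization (-0.09) and the GC content and length correction (-0.07). In Nrf2-KO mice the flight difference was -0.16 (95% interval -0.37 to 0.05, adjusted p = 0.201), with 5 of 6 FL-KO mice below all GC-KO mice. There Srxn1 was called lower with a pseudocount of 0.1 (-0.37) and in a fit of GC-KO and FL-KO mice alone (-0.16). After GC content and length trends were removed it was called higher (0.30). The study had picked Srxn1 and Nqo1 among its Nrf2 target genes on these same libraries, so their differences are not independent evidence.

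Txn1, the cytosolic thioredoxin, lay between 72.4 and 117 TPM in GC-WT mice (median 88.0) and between 72.7 and 136 TPM in FL-WT mice (median 114). It lay between 73.8 and 101 TPM in GC-KO mice (median 79.8) and between 74.1 and 101 TPM in FL-KO mice (median 85.0). The 4 groups overlapped. With flight, Txn1 differed by 0.25 (95% interval -0.04 to 0.54, adjusted p = 0.169) in WT mice, which is 0.50 above the median of all genes. It was called higher in FL-WT mice in 5 of 11 alternative settings, with values between 0.23 and 0.60 over the 11. In Nrf2-KO mice the flight difference was 0.07 (95% interval -0.22 to 0.36, adjusted p = 0.691), and it was called higher with median-of-ratios scaling (0.50), quantile normalization (0.34) and TPM without 5 small RNAs (0.25). The genotype differences were -0.10 (adjusted p = 0.603) on the ground and -0.29 (adjusted p = 0.107) in flight, and each turned positive under median-of-ratios scaling (0.25 and 0.15), whereas both were called lower after GC content and length trends were removed (-0.18 and -0.35).

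Among the peroxiredoxins, Prdx2 was lower with flight in both genotypes, Prdx6 was lower in Nrf2-KO mice, and Prdx1 was not called. Prdx2, the main peroxiredoxin of red cells, lay between 153 and 296 TPM in GC-WT mice (median 240.1) and between 89.0 and 159 TPM in FL-WT mice (median 151). It lay between 258 and 364 TPM in GC-KO mice (median 291) and between 129 and 230 TPM in FL-KO mice (median 173). All 6 FL-KO mice were below all 6 GC-KO mice, and 3 of 6 FL-WT mice were below all GC-WT mice. The flight difference was -0.78 ± 0.16 (SE, limma, adjusted p = 0.00154) in WT mice and -0.74 ± 0.16 (SE, limma, adjusted p = 0.00140) in Nrf2-KO mice, or -0.54 and -0.46 relative to all genes. The call in WT mice held in all 11 alternative settings, with values between -0.81 and -0.43, and that in Nrf2-KO mice in 10 of them. With median-of-ratios scaling the latter was -0.31 (adjusted p = 0.104). Prdx2 was higher in Nrf2-KO mice, by 0.35 ± 0.16 (SE, limma, adjusted p = 0.0923) on the ground and by 0.39 ± 0.16 (SE, limma, adjusted p = 0.0575) in flight. In flight 5 of 6 FL-KO mice were above all FL-WT mice. The other scalings gave 0.24 to 0.71 on the ground and 0.48 to 0.83 in flight, each of them called. The call on the ground was lost without GC-WT mouse 3, 5 or 7, GC-KO mouse 1, 2, 4, 9 or 11 or FL-KO mouse 4 or 12 (adjusted p 0.101 to 0.267). The call in flight was lost without FL-WT mouse 3 or 5 or FL-KO mouse 1 or 9 (adjusted p 0.108 to 0.156).

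Many erythroid markers were, like Prdx2, lower with flight in both genotypes. Of 14 such genes 13 were matched, all detected, and 8 were lower with flight in WT mice and 9 in Nrf2-KO mice, with none higher, where 39.0% and 53.1% of all tested genes were lower. The 9 of them that are not globins summed to between 888 and 1901 TPM in GC-WT mice, 693 and 1169 in FL-WT mice, 1285 and 2175 in GC-KO mice and 713 and 1127 in FL-KO mice. The globin Hba-a1 differed with flight by 0.03 in WT mice and by -0.13 in Nrf2-KO mice (adjusted p = 0.877 and 0.480). Across genotypes 3 markers were lower and 3 higher in Nrf2-KO mice on the ground, where 42.9% and 3.13% of all tested genes were. In the in-flight genotype comparison 4 were lower and 2 higher, against 47.2% and 1.91%. The median genotype difference of the 13 markers lay above that of all genes, by 0.40 on the ground and by 0.24 in flight. Prdx2 correlated with the sum without globins at r = 0.89 over 24 libraries and at 0.87 after group means were removed. The part of erythroid cells in the Prdx2 differences was not tested.

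**Figure D2:**
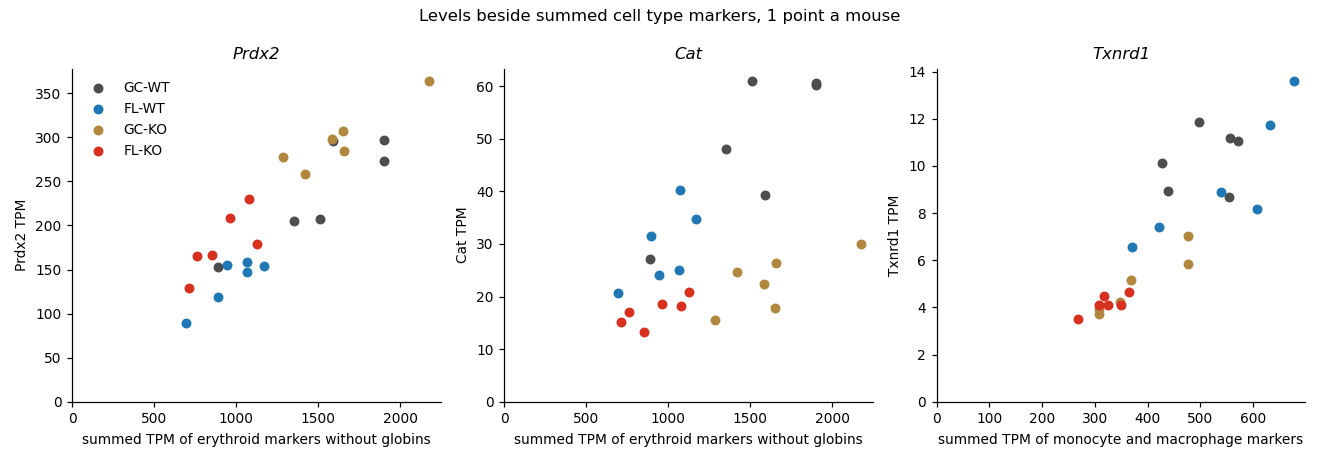
Prdx2 and Cat TPM against the summed TPM of 9 erythroid markers other than globins, and Txnrd1 TPM against the summed TPM of 9 monocyte and macrophage markers, 1 point per mouse and 1 colour per group. All FL-KO mice lie at lower erythroid sums than all GC-KO mice, and FL-WT and GC-WT mice overlap in these sums.

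Prdx6, which reduces phospholipid hydroperoxides with glutathione rather than thioredoxin, lay between 30.2 and 37.6 TPM in GC-WT mice (median 32.1) and between 20.8 and 30.1 TPM in GC-KO mice (median 22.6). It lay between 20.6 and 46.6 TPM in FL-WT mice (median 32.2) and between 19.5 and 26.6 TPM in FL-KO mice (median 25.8). The genotypes did not overlap on the ground and overlapped in flight. Prdx6 was lower in Nrf2-KO mice on the ground by -0.42 ± 0.15 (SE, limma, adjusted p = 0.0261), a call lost with median-of-ratios scaling (-0.07) and the GC content and length correction (-0.11). It was lower in Nrf2-KO mice in flight by -0.37 ± 0.15 (SE, limma, adjusted p = 0.0394), and this difference turned to 0.057 and 0.0060 under those alternatives and was lost with quantile normalization (-0.01). The in-flight call was also lost without FL-WT mouse 7 (adjusted p = 0.140), FL-WT mouse 8 (0.122) or FL-KO mouse 2 (0.112). Relative to all genes the genotype differences of Prdx6 were -0.19 on the ground and -0.12 in flight. With flight itself Prdx6 differed by -0.01 (95% interval -0.31 to 0.29) in WT mice and 0.03 (-0.27 to 0.33) in Nrf2-KO mice. It was called higher with flight in both genotypes under median-of-ratios scaling (0.33 and 0.46), quantile normalization (0.22 and 0.36) and the GC content and length correction (0.25 and 0.37).

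Prdx1, a widely expressed peroxiredoxin recycled by thioredoxin, lay between 31.2 and 54.5 TPM in GC-WT mice (median 40.6) and between 33.9 and 65.0 TPM in FL-WT mice (median 50.6). It lay between 40.2 and 49.4 TPM in GC-KO mice (median 43.4) and between 34.7 and 49.4 TPM in FL-KO mice (median 42.7). All groups overlapped. The difference with flight was 0.27 (95% interval -0.02 to 0.55, adjusted p = 0.143) in WT mice and -0.07 (-0.35 to 0.22, adjusted p = 0.689) in Nrf2-KO mice. In WT mice it was called higher in 5 of 11 alternative settings, between 0.25 and 0.61. In Nrf2-KO mice the flight difference was called at 0.36 with median-of-ratios scaling and at 0.27 with quantile normalization. The genotype differences were 0.12 (adjusted p = 0.529) on the ground and -0.21 (adjusted p = 0.231) in flight. On the ground Prdx1 was called higher in Nrf2-KO mice with median-of-ratios scaling (0.47), quantile normalization (0.35) and the GC content and length correction (0.13). In flight it was called higher with the first of these (0.22) and lower with the last (-0.17).

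Cat was lower in Nrf2-KO mice in both settings and lower after flight in WT mice. Catalase, which breaks down hydrogen peroxide without a reducing partner, lay between 27.1 and 61.0 TPM in GC-WT mice (median 54.1) and between 20.6 and 40.2 TPM in FL-WT mice (median 28.2). It lay between 15.5 and 29.9 TPM in GC-KO mice (median 23.5) and between 13.3 and 20.9 TPM in FL-KO mice (median 17.6). In each setting 5 of 6 Nrf2-KO mice lay under the lowest WT mouse. The genotype difference was -1.06 ± 0.19 (SE, limma, adjusted p = 0.000411) on the ground and -0.71 ± 0.19 (SE, limma, adjusted p = 0.00294) in flight, or -0.84 and -0.46 relative to all genes. Mean TPM in GC-KO mice was 46.1% of that in GC-WT mice for Cat, 48.4% for Txnrd1 and 34.4% for Srxn1. In FL-KO mice the means were 58.7%, 44.3% and 39.4% of those in FL-WT mice. On the log2(TPM + 1) scale, where the added 1 compresses low genes, Cat was the 1 member that also passed a fold change of 2 on the ground. It did not without GC-WT mouse 6, 7 or 8 or GC-KO mouse 4 or 9. As a difference that call held in all 10 alternative settings with values between -1.19 and -0.71, but after quantile normalization, median-of-ratios scaling or the GC content and length correction it no longer reached that fold. In flight the genotype call was lost with median-of-ratios scaling (-0.29, adjusted p = 0.115). The flight difference in WT mice was -0.71 ± 0.19 (SE, limma, adjusted p = 0.00803), with 3 of 6 FL-WT mice below all GC-WT mice, and it was called in all 11 alternative settings (-0.74 to -0.37). In Nrf2-KO mice it was -0.36 (95% interval -0.75 to 0.02, adjusted p = 0.115). It was called lower there in a fit of GC-KO and FL-KO mice alone (limma, adjusted p = 0.0575) and with the mouse number as a block (0.0281), and it came to 0.05 with median-of-ratios scaling and to -0.00 with quantile normalization. Cat correlated with the erythroid sum without globins at r = 0.56 over 24 libraries and at 0.76 after group means were removed, and with the monocyte and macrophage sum at 0.72 and 0.49. The part of these cells in the Cat differences was not tested.

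Neither superoxide dismutase was called in any comparison. Sod1, the copper and zinc enzyme of the cytosol, lay between 104 and 157 TPM in GC-WT mice (median 117), 83.4 and 149 in FL-WT mice (median 110.1), 116 and 135 in GC-KO mice (median 127) and 86.7 and 129 in FL-KO mice (median 119). Its 4 differences lay between -0.17 and 0.07 with adjusted p of 0.276 to 0.990. It was called higher in Nrf2-KO mice with median-of-ratios scaling, by 0.43 on the ground and by 0.44 in flight, with the GC content and length correction (0.42 and 0.41) and, in flight alone, with quantile normalization (0.24). Sod2, the manganese enzyme of mitochondria, lay between 3.35 and 5.19 TPM in GC-WT mice (median 4.01), 2.02 and 4.41 in FL-WT mice (median 3.17), 2.6 and 4.13 in GC-KO mice (median 3.23) and 1.84 and 3.28 in FL-KO mice (median 2.72). Its differences lay between -0.29 and -0.18, near the medians of all genes, and that with flight in WT mice had an adjusted p of 0.102. With flight in WT mice Sod2 was called lower without 5 small RNAs (-0.36), and at -0.29 with a mean-expression trend and with the mouse number as a block. In Nrf2-KO mice on the ground it was called lower without 5 small RNAs (-0.39) and, at -0.25, in a fit of the ground mice alone. In flight it was called higher in Nrf2-KO mice with median-of-ratios scaling (0.16) and quantile normalization (0.25). The groups overlapped for both genes.

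Nqo1 was lower after flight in both genotypes, with no overlap between flight and ground mice, and lower in Nrf2-KO mice. It lay between 2.19 and 3.66 TPM in GC-WT mice (median 3.19) and between 1.17 and 2.0 TPM in FL-WT mice (median 1.73). It lay between 1.61 and 2.97 TPM in GC-KO mice (median 1.99) and between 0.76 and 1.56 TPM in FL-KO mice (median 1.04). Flight and ground mice of a genotype thus did not overlap. The flight difference was -0.58 ± 0.13 (SE, limma, adjusted p = 0.00190) in WT mice and -0.54 ± 0.13 (SE, limma, adjusted p = 0.00203) in Nrf2-KO mice, or -0.34 and -0.25 relative to all genes. On the TPM scale, which is not compressed by the added 1, flight means were 55.0% and 53.4% of ground means. Both calls held in all 11 alternative settings, between -0.81 and -0.28 in WT mice and between -0.85 and -0.24 in Nrf2-KO mice. The genotype difference was -0.37 ± 0.13 (SE, limma, adjusted p = 0.0203) on the ground and -0.33 ± 0.13 (SE, limma, adjusted p = 0.0334) in flight, with 4 of 6 Nrf2-KO mice under the lowest WT mouse in each. Relative to all genes these differences were -0.15 and -0.08. Both genotype calls were lost with median-of-ratios scaling (-0.12 and -0.09) and quantile normalization (-0.09 and -0.05).

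Markers of several other cells were lower in the same flight comparisons as Nqo1, beside the erythroid genes already given. Of all tested genes, 39.0% were lower with flight in WT mice and 53.1% in Nrf2-KO mice. Of 8 B lineage genes, all detected, 7 were lower with flight in each genotype. They summed to between 177 and 265 TPM in GC-WT mice, 94.3 and 229.7 in FL-WT mice, 124 and 186 in GC-KO mice and 79.6 and 128 in FL-KO mice. Of 6 megakaryocyte genes, all detected, 4 were lower with flight in WT mice and 6 in Nrf2-KO mice. Their sums lay between 88.7 and 291 TPM in GC-WT mice, 44.7 and 155 in FL-WT mice, 93.4 and 179.8 in GC-KO mice and 30.5 and 133 in FL-KO mice. Of 6 stroma, bone and liver genes 4 were tested, all 4 were lower with flight in each genotype, and Alb was listed at 0 in every library. These 6 summed to between 37.7 and 80.7 TPM in GC-WT mice, 21.8 and 53.0 in FL-WT mice, 39.25 and 71.1 in GC-KO mice and 14.9 and 56.7 in FL-KO mice. Neutrophil markers moved otherwise, with 5 of 10 higher and 0 lower with flight in WT mice, where 0.994% of all tested genes were higher. In Nrf2-KO mice 1 was higher and 2 lower with flight, where 0.299% of all tested genes were higher. Of 7 T and NK genes, all detected, 0 were lower with flight in WT mice and 1 in Nrf2-KO mice. Of the 9 monocyte and macrophage genes, 1 was lower with flight in WT mice and 5 in Nrf2-KO mice. In these 2 lists 0 were higher with flight in either genotype. Between genotypes, 6 neutrophil markers were lower and 2 higher in Nrf2-KO mice on the ground, against 42.9% and 3.13% of all tested genes. In flight 7 were lower and 0 higher in Nrf2-KO mice, against 47.2% and 1.91%. The part of these cells in the Nqo1 differences was not tested.

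**Figure D3:**
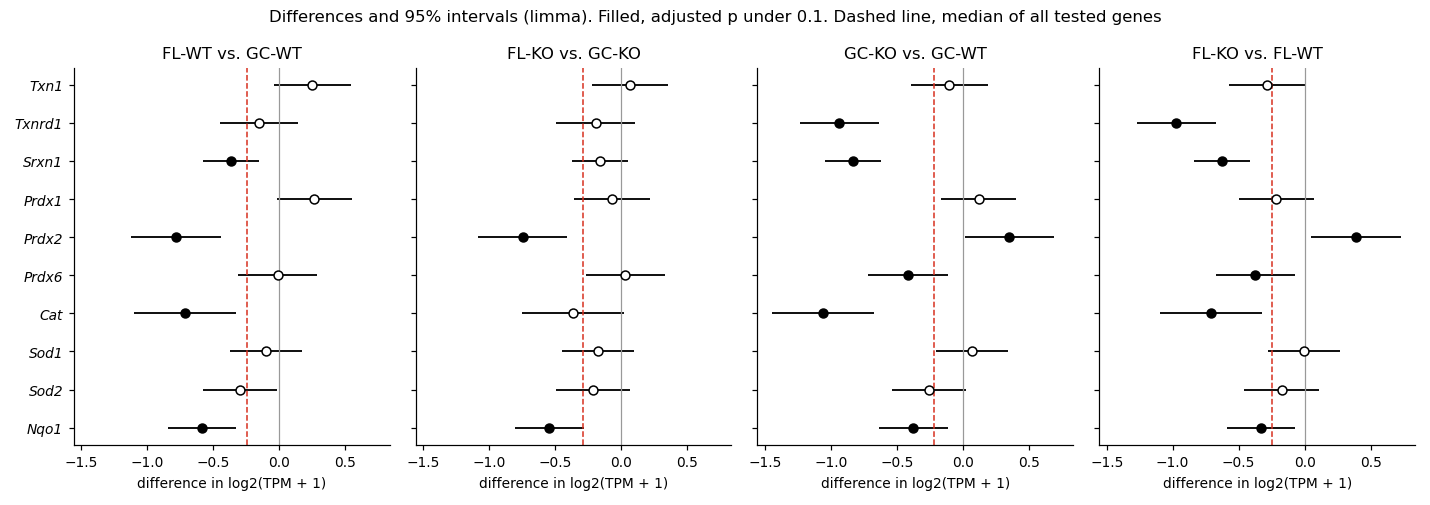
Difference in log2(TPM + 1) of each gene (points) with its 95% interval (lines) in the 4 comparisons, filled where the adjusted p was under 0.1, with the median of all tested genes as a dashed line. Txnrd1, Srxn1 and Cat lie furthest to the left in the ground genotype comparison, and Prdx2 is the filled point on the right in both genotype comparisons.

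Over the 10 genes, the share that was lower stood near or under that of all genes in each comparison, and Srxn1, which entered the test through its WT libraries, is counted where it was lower. In the WT flight comparison, 4 members were lower at an adjusted p under 0.1 (Srxn1, Prdx2, Cat and Nqo1), where 39.0% of all tested genes were lower, and 0 were higher (0.994% of all genes). In the KO flight comparison, 2 were lower (Prdx2 and Nqo1, against 53.1%) and 0 higher (0.299%). By limma at an unadjusted p under 0.05, 0 members were higher in either comparison. In the ground genotype comparison, 5 were lower (Txnrd1, Srxn1, Prdx6, Cat and Nqo1, against 42.9%) and 1 was higher (Prdx2, against 3.13%). The same 5 were lower and the same 1 higher in the in-flight genotype comparison, where 47.2% and 1.91% of all genes were, and the genotype comparisons share no mice. With a fold change of at least 2 added, members lower numbered 0, 0, 1 and 0 in the order given, against 0.938%, 2.13%, 3.04% and 8.36% of all genes, and 0 were higher in each (0.0647%, 0.0%, 0.129% and 0.097% of all genes). Members whose groups did not overlap and were lower numbered 1 (4.19% of all genes), 2 (18.4%), 3 (9.15%) and 2 (20.6%), and 0 were higher without overlap (0.097%, 0.0323%, 0.218% and 0.307% of all genes). The median difference of the members was -0.22, -0.18, -0.31 and -0.31, within 0.11 of the median of all genes in each comparison.

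The flight difference of each member was compared between the genotypes. No member was called in the interaction of flight and genotype, which called 0.0162% of all genes as lower and 0.0% as higher, and 0 members had an unadjusted p under 0.05 by limma. The intervals were wide. For Cat the flight difference in Nrf2-KO mice minus that in WT mice was 0.35 (95% interval -0.20 to 0.89), for Prdx1 it was -0.33 (-0.74 to 0.07) and for Nqo1 0.04 (-0.32 to 0.41).

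**Figure D4:**
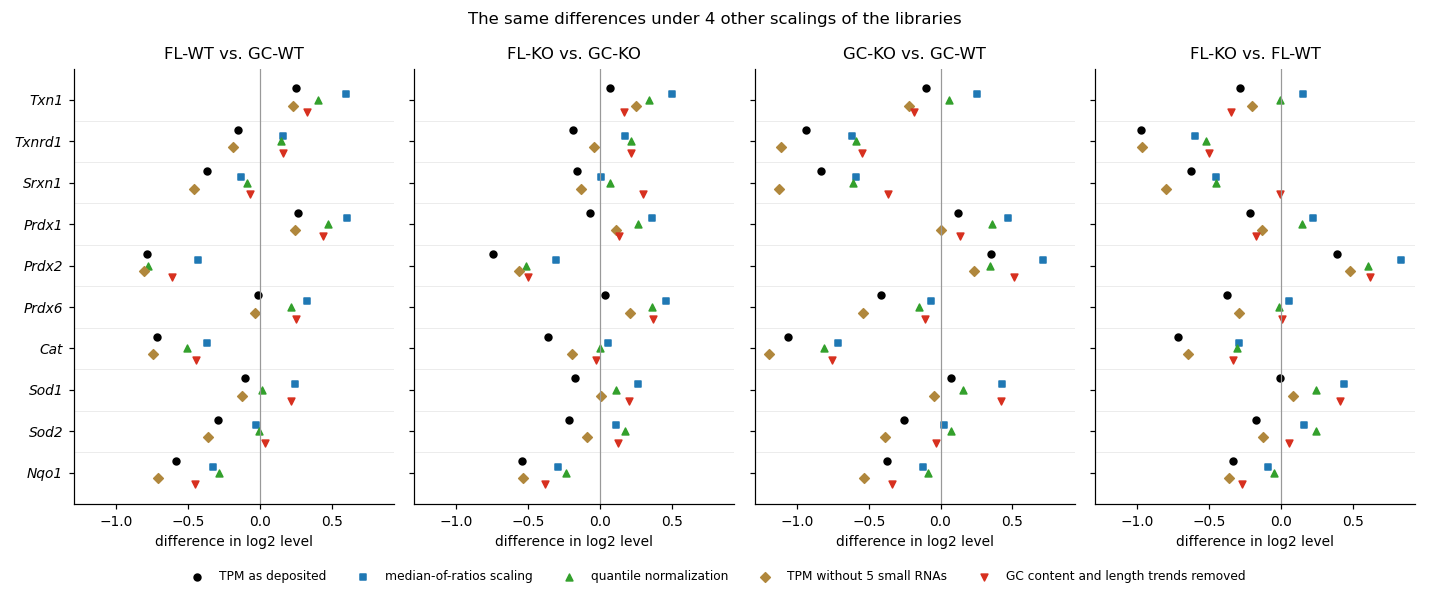
Difference in log2 level of each gene in the 4 comparisons with the TPM as deposited and under 4 other scalings of the libraries. Txnrd1, Srxn1, Cat and Nqo1 stay left of 0 in both genotype comparisons under all 5. Srxn1 comes to -0.0031 in the in-flight genotype comparison after GC content and length trends were removed. Prdx2 and Nqo1 stay left of 0 in both flight comparisons under all 5, whereas Txnrd1, Srxn1 and Cat cross 0 in the KO flight comparison. Txn1, Prdx1, Prdx6, Sod1 and Sod2 each cross 0 in at least 1 comparison.

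The levels of the members were related across mice. After group means were removed, all 45 pairs of members had a Pearson correlation above 0 over the 24 libraries, from 0.28 (Prdx1 with Cat) to 0.83 (Txnrd1 with Prdx6), with a median of 0.62. TPM of one library share their total, which ties all genes of a library together. Among the 5025 genes that averaged 5 TPM or more, the 2 genes with the highest correlation of log2(TPM + 1) were named for each member. Prdx2 was most like Hagh (0.98) and Glrx5 (0.98), and Txnrd1 was most like Aldoa (0.98) and Itgam (0.98). Srxn1 was most like Nfe2l2 (0.91) and Sirt2 (0.88). Cat was most like Mta3 (0.92) and Ddi2 (0.92). These values describe 24 libraries in 4 groups and include the differences between groups. Nqo1 was most like Btrc (0.94) and Rrm2 (0.93), Sod2 like Hnrnpk (0.97) and Arcn1 (0.96), and Sod1 like Eif3i (0.91) and Mrpl28 (0.89). Txn1 was most like Anxa3 (0.95) and Tnfaip8l2 (0.93), Prdx1 like Psma4 (0.93) and Magoh (0.92), and Prdx6 like Vps28 (0.96) and Capzb (0.95).

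A wider list of 31 thioredoxin, glutaredoxin, glutathione peroxidase, methionine sulfoxide reductase and sestrin genes held 26 tested genes. Of these, 5 were lower in the WT flight comparison, 11 in the KO flight comparison, 6 in the ground and 11 in the in-flight genotype comparison, each with 0 higher and 0 past a fold change of 2. All genes were lower at 39.0%, 53.1%, 42.9% and 47.2% in that order, so each of these counts is a smaller share than that of all genes. At an unadjusted p under 0.05 by limma, 1 was higher in the WT flight comparison and 0 in the other comparisons. Their medians of -0.14, -0.21, -0.13 and -0.17 lay above those of all genes.

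Direct paralogues of the members are given next, several of them mitochondrial. Txnrd2, the mitochondrial thioredoxin reductase, was lower with flight by -0.76 ± 0.14 (SE, limma, adjusted p = 0.000409) in WT and by -0.82 ± 0.14 (SE, limma, adjusted p = 0.000112) in Nrf2-KO mice, and its genotype differences were 0.17 and 0.11 (adjusted p = 0.344 and 0.552). Txn2, the mitochondrial thioredoxin, was lower in Nrf2-KO mice by -0.41 (limma, adjusted p = 0.0231) on the ground and by -0.65 (adjusted p = 0.000541) in flight, and lower with flight in Nrf2-KO mice by -0.43 (limma, adjusted p = 0.0204), without overlap. Prdx3, the mitochondrial peroxiredoxin, was lower with flight in Nrf2-KO mice by -0.55 (limma, adjusted p = 0.00359) and in FL-KO than in FL-WT mice by -0.30 (adjusted p = 0.0829). Prdx5 was lower in FL-KO than in FL-WT mice by -0.47 (limma, adjusted p = 0.00352) and Prdx4 by -0.31 (adjusted p = 0.0480). The median of all genes was -0.29 in the KO flight comparison and -0.25 in the in-flight genotype comparison, near the in-flight values of Prdx3 and Prdx4. The paralogues are given with the TPM as deposited alone. Nqo2, the paralogue of Nqo1, was not called, with differences between -0.18 and 0.02. Txnrd3 and Sod3 did not pass 1 TPM in any library. Outside the naming rule, and chosen after their values were seen, Sesn2 was lower in Nrf2-KO mice by -0.67 on the ground and by -0.79 in flight, and Glrx5, a mitochondrial glutaredoxin of iron-sulfur cluster assembly, was lower with flight by -0.73 in WT and by -0.69 in Nrf2-KO mice.

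**Figure D5:**
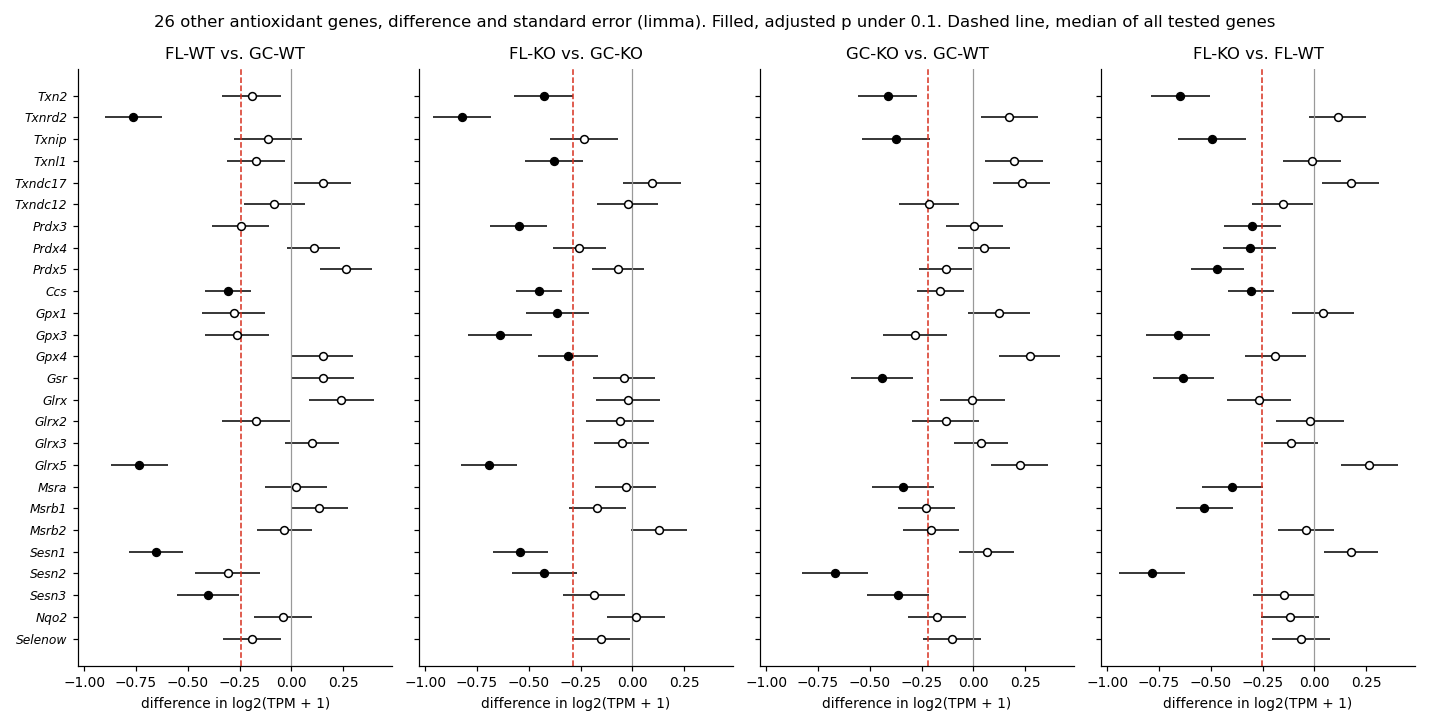
Difference in log2(TPM + 1) of 26 other antioxidant genes (points) with its standard error (lines) in the 4 comparisons, filled where the adjusted p was under 0.1, with the median of all tested genes dashed. Txnrd2, Glrx5 and Sesn1 lie furthest left in the WT flight comparison, and Sesn2 in both genotype comparisons.

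Some reads could be shared with other genes. Transcripts of 5 other genes, Txn-ps1, Gm7204, Gm21399, Tdpx-ps1 and Gm8566, matched Txn1, Prdx1, Prdx2 or Sod1 at 95% identity or more over at least 300 bases. Their summed TPM reached at most 0.872% of that of the member. Txnrd1 overlaps Eid3 on the same strand, where a directional kit cannot separate reads, and Eid3 had a mean of 0.506 TPM and at most 1.02 TPM in a library. Prdx2 overlaps Rnaseh2a and Junb, and Sod1 overlaps Scaf4, on the opposite strand. Txnrd1 also overlaps Gm38560 and Gm47073 on the opposite strand, which reached at most 0.29 and 0.11 TPM. The libraries were made with a directional kit, but the strand setting of the counting is not given in the sources used here. Gene positions on GRCm38 were chromosome 10, 82833951 to 82897712 for Txnrd1, chromosome 2, 103453849 to 103485160 for Cat, chromosome 8, 84969587 to 84974834 for Prdx2 and chromosome 8, 107388225 to 107403206 for Nqo1.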

How the data were processed

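RNA of frozen bone marrow cells from 24 mice, 6 per group, was measured by RNA-seq. The authors used a directional MGIEasy kit for the libraries and, per the labels, STAR 2.6.1, RSEM 1.3.1 and mm10. The deposited table gives TPM, and its columns sum to 999999.5 to 1000001.1. Read counts are not in the table, so depth and counting error are unknown. RSEM's annotation and strand setting are not given in the sources used here. Small RNAs (5 genes) held 35.4% to 59.6% of TPM, and TPM is a share, so a change in them moves all other genes.

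Columns were matched to mice by title, and groups were taken from the labels. Genes above 1 TPM in at least 1 library (12373) were tested with limma 3.58.1 (R 4.3.3) on log2(TPM + 1), with 1 mean per group over 24 libraries and Benjamini-Hochberg adjustment over all tested genes. Members were called at an adjusted p under 0.1, also with a fold change of at least 2, as the study's methods set it. The log2(TPM + 1) scale understates differences of low genes such as Srxn1 and Nqo1. An exact permutation test, two-sided, was run on the TPM of Nfe2l2. The labels call the libraries separate mice. The members, gene lists, tests and alternatives were chosen with earlier results of these data known. The text names the 10 members, the direct paralogues of members from a list of other antioxidant genes, the 2 genes most like each member and Nfe2l2. The steps were tested on simulated data. Python 3.11.15 with matplotlib 3.10.9, pandas 2.3.3, scipy 1.17.1 and numpy 2.4.6 was used for other steps, and blastn for near-identical transcripts. Symbols and positions came from GENCODE M21, and promoter sequences from RefSeq on GRCm38.p6.

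The alternatives concerned scaling (quantile normalization, median of ratios, TPM without 5 small RNAs, removal of GC content and length trends), the pseudocount (0.1), the filter (none, or 1 TPM exceeded by 6 libraries or more), the model (a mean-expression trend, a block for mouse number, or a fit without the groups not compared) and the thresholds (adjusted p of 0.05, or no fold change). Every library was also left out once.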

Additional observations from a re-analysis of the deposited data

Results flagged for a closer look

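Of 40 sets of 6 mice (10 genes in 4 groups), 2 held a mouse far from the others by Dixon's test, where chance gives about 1 in 20. Prdx6 in GC-WT mouse 8 was at 37.63 TPM, with the other 5 mice between 30.2 and 32.9 TPM. Prdx6 in FL-KO mouse 2 was at 19.47 TPM, with the other 5 mice between 24.7 and 26.6 TPM. Without FL-KO mouse 2 the Prdx6 difference between FL-KO and FL-WT mice was -0.31 (limma, adjusted p = 0.112). No flight difference of a member was called as different between the genotypes.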

How the results depend on the processing

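Without a minimum fold change, members lower numbered 4, 2, 5 and 5 in the WT flight, KO flight, ground genotype and in-flight genotype comparisons, against 0, 0, 1 and 0 with a fold change of 2. With that fold change, in the ground genotype comparison they numbered 3 with a pseudocount of 0.1 or without 5 small RNAs, and 0 with median-of-ratios scaling, quantile normalization or GC content and length trends removed (with a library left out 0 to 2, being 0 without GC-WT mouse 6, 7 or 8 or GC-KO mouse 4 or 9 and 2 without GC-KO mouse 11). In the in-flight genotype comparison they numbered 2 with a pseudocount of 0.1 (with a library left out 0 to 1, being 1 without FL-WT mouse 5, 6 or 10 or FL-KO mouse 11). At an adjusted p alone, members lower numbered 1 (the KO flight comparison), 3 (the ground genotype comparison) and 2 (the in-flight genotype comparison) with median-of-ratios scaling, 3 (the in-flight genotype comparison) with quantile normalization and 4 (the KO flight comparison) in a fit of the compared groups alone. With a library left out they numbered 4 to 8 in the in-flight genotype comparison, being 8 without FL-WT mouse 5. Members higher numbered 3, 4, 4 and 4 in the same order with median-of-ratios scaling. They numbered 3, 5, 2 and 3 with quantile normalization, 4, 3, 3 and 2 with GC content and length trends removed, and 2 and 1 in the flight comparisons without small RNAs. They numbered 0 in the ground genotype comparison with a pseudocount of 0.1, no filter, a mean-expression trend or an adjusted p under 0.05, and 0 in the in-flight genotype comparison with no filter or an adjusted p under 0.05. With a library left out, members higher numbered 0 to 2 in the WT flight comparison and 0 to 1 in each genotype comparison. The median of the members relative to all genes was -0.13, -0.30 and -0.30 with no filter in all but the WT flight comparison. The cause of these changes was not tested.

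Single differences that changed sign and were called on at least 1 side of the change were these, each called after it except Prdx6 in the in-flight genotype comparison, which was called before it. With median-of-ratios scaling, Txn1 in the ground genotype comparison was 0.25, Txnrd1 in the KO flight comparison 0.18, Prdx1 in the KO flight comparison 0.36 and in the in-flight genotype comparison 0.22, Prdx6 in the WT flight comparison 0.33 and in the in-flight genotype comparison 0.057, Sod1 in the in-flight genotype comparison 0.44 and Sod2 in the in-flight genotype comparison 0.16. With quantile normalization, Txnrd1 in the KO flight comparison was 0.21, Prdx1 in the KO flight comparison 0.27, Prdx6 in the WT flight comparison 0.22, Sod1 in the in-flight genotype comparison 0.24, and Sod2 0.17 in the KO flight comparison and 0.25 in the in-flight genotype comparison. With GC content and length trends removed, Txnrd1 was 0.16 in the WT flight comparison and 0.21 in the KO flight comparison, Srxn1 in the KO flight comparison 0.30, Prdx6 in the WT flight comparison 0.25 and in the in-flight genotype comparison 0.0060, and Sod1 in the in-flight genotype comparison 0.41.

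The mouse numbers are shared by ground and flight mice of a genotype, and their libraries correlated at -0.03 to 0.27 after group means were removed, with 7 of 12 pairs over 0.1 and 3 of 12 mice correlating best with their own number, so the numbers were not taken as pairs. With the mouse number as a replicate block, members higher in the WT flight comparison numbered 2 (Txn1 and Prdx1), and Sod2 in that comparison and Cat in the KO flight comparison were called lower. No block was possible between genotypes, which share no numbers. Without 1 library some members gained a call: Txn1 and Prdx1 in the WT flight comparison (0.33 and 0.35 without GC-WT mouse 10, 0.36 and 0.37 without FL-WT mouse 5), Prdx1 (-0.32) and Sod2 (-0.26) in the in-flight genotype comparison without FL-WT mouse 5, Txn1 there without GC-WT mouse 10, FL-WT mouse 5 or 6 or FL-KO mouse 11 or 12 (-0.40 to -0.29), Cat in the KO flight comparison without GC-WT mouse 5, FL-WT mouse 7, GC-KO mouse 4 or 9 or FL-KO mouse 11 (-0.46 to -0.36), Sod2 in the WT flight comparison without GC-WT mouse 3 or 5, FL-WT mouse 7, 8 or 10, GC-KO mouse 11 or FL-KO mouse 2 (-0.37 to -0.29) and in the ground genotype comparison without GC-KO mouse 11 (-0.31). With no read counts, the depth limits on low genes such as Srxn1 and Nqo1 are unknown.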
